A study of Rattus norvegicus with 16 samples.

Results

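LXR target genes of sterol export and lipid remodelling were examined in cultured rat hepatocytes in which cholesterol synthesis was inhibited by either of 2 drugs. The 8 genes, Abca1, Abcg1, Abcg5, Mylip, Lpcat3, Pltp, Lpl and Smpdl3a, were chosen by name as known LXR targets, and all 8 were among the 20402 genes tested. They were found by the RefSeq accessions of their probes, 9 probes in all, of which Mylip had 2. Each of these probes was well above background in 32 of the 32 channel measurements.

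The cells were primary hepatocytes, taken from male rats of the Sprague Dawley strain and maintained in Williams Medium E. The groups were cells given 100 µM SQ1, cells given 30 µM pravastatin, and untreated cells; treatment began 48 hours after plating and lasted 48 hours. SQ1 is known from hepatocyte work as squalestatin 1, an inhibitor of squalene synthase, and pravastatin is a statin, which inhibits the pathway further upstream; their doses differed. Each of 16 two-colour Agilent arrays held RNA of 1 treated and 1 untreated culture, with 8 arrays per drug and 4 in each dye orientation. The series' design text calls the replicates biological, and nothing further says how cultures relate to animals, so p-values measure the spread between these cultures. Same-numbered arrays of both drugs carry the same control number in the scanner records, so both comparisons share untreated cultures. The drug of each array follows its sample label, and the names of the scanner records carry the same drug. The deposited value table gives the values of each array under the other drug, so one of these sources has the drugs exchanged. If it were the labels, every value given here for SQ1 would be one for pravastatin and the reverse, and every sign of SQ1 minus pravastatin would turn; values common to both drugs would stand.

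The liver X receptors, LXRalpha (Nr1h3) and LXRbeta (Nr1h2), are nuclear receptors that bind oxysterols and act as heterodimers with retinoid X receptors. When cellular sterol is plentiful they activate genes that move sterol out of the cell, limit uptake of LDL and remodel phospholipids; when sterol is scarce, SREBP2 activates the genes of sterol synthesis and uptake. In liver, LXR targets feed cholesterol to high-density lipoprotein and to bile.

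Abcg5 is shown first for the size of its difference from untreated cells. Under the main background correction, its fitted difference was the largest of the 8 genes with either drug. With no background subtraction Lpl (-0.89) was past it with SQ1 (0.78) and Abcg1 (-0.90) with pravastatin (0.60). With pravastatin, Abcg1 was also past it by the median log2 ratio (-1.29 against 1.26) and within the second scan day (-1.49 against 1.13). Abcg5 and Abcg8 encode the 2 subunits of the transporter that moves sterols into bile and are divergently transcribed, and the 205 bases between their annotated starts are the DNA that both promoters share. RefSeq places them at chr6:15717731-15717935 (rat assembly GRCr8, plus strand, reading towards Abcg5, an upstream intergenic region). In human cells this stretch is known to bind GATA factors and HNF4A. Capitals mark the 2 matches of AGATAA, searched on both strands; 8.75% of the 33465 RefSeq promoters held one in a window of the same length.
Abcg5 and Abcg8 shared region: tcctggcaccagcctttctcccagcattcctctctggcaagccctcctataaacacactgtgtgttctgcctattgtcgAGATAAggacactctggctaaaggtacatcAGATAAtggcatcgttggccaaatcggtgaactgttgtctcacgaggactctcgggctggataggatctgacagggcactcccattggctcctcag
The direct repeat that LXR and its partner bind, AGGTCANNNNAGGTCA, was searched on both strands in the windows from 250 bases before to 50 bases after each start, with up to 2 mismatches in its 12 fixed positions. RefSeq gave a window for 6 of the 8 genes, and 0 of them held a match, while 2.93% of all 33465 windows did. At that share few or no matches are expected in 6 windows, so finding 0 carries no information about these genes. A window without a match can still hold a site with more mismatches. The search therefore says nothing about binding in these windows or elsewhere.

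The 8 genes did not move in 1 direction. With SQ1, 7 of the 8 passed an adjusted p of 0.05, 3 of them higher (Abcg5, Lpcat3, Smpdl3a) and 4 lower (Lpl, Abcg1, Mylip, Pltp) than in untreated cells. Of all genes tested, 63.9% passed in that comparison, 32.7% upward and 31.2% downward, so a call alone says little about these genes. With pravastatin, 6 of the 8 passed, 2 higher (Abcg5, Lpcat3) and 4 lower (Abcg1, Mylip, Lpl, Pltp), against 39% of all genes, 19.4% upward and 19.7% downward. Their sizes stood further from the background: the median absolute log2 difference was 0.65 over the 8 genes and 0.13 over all genes with SQ1, and 0.49 and 0.07 with pravastatin. Past a 1.5-fold change as well as the test, 1 gene rose with SQ1 (Abcg5) where 3.05% of all genes did, and 3 fell (Lpl, Abcg1, Mylip) where 4.43% did. With pravastatin the same 4 genes were past 1.5-fold, Abcg5 upward, where 0.98% of all genes rose so far, and Lpl, Abcg1 and Mylip downward, where 0.98% fell so far. These sizes depend on the processing. With no background subtraction Mylip (-0.39 with SQ1, -0.48 with pravastatin), Abcg1 with SQ1 (-0.56) and Lpl with pravastatin (-0.56) were under 1.5-fold. With the scanner software's processed signals Pltp was past it with pravastatin (-0.69). With arrays scaled to 1 spread of log ratios, Abcg1 (-0.58) and Mylip (-0.56) with SQ1 were under it. So was Mylip with both drugs by the mean of its 2 probes (-0.49 and -0.58), and Lpl with pravastatin within the first scan day (-0.47). By sign alone, 3 genes lay above 0 on 8 of 8 SQ1 arrays (21.6% of all genes) and 3 below (20.7%), and with pravastatin 1 lay above (10.7%) and 4 below (11.7%). The signed median of the 8 genes was -0.07 with SQ1, on both sides of 0 by array (-0.27 to 0.14), and -0.21 with pravastatin, below 0 on every array (-0.39 to -0.05). Abca1, a widely used LXR readout, did not pass with either drug.

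**Figure D1:**
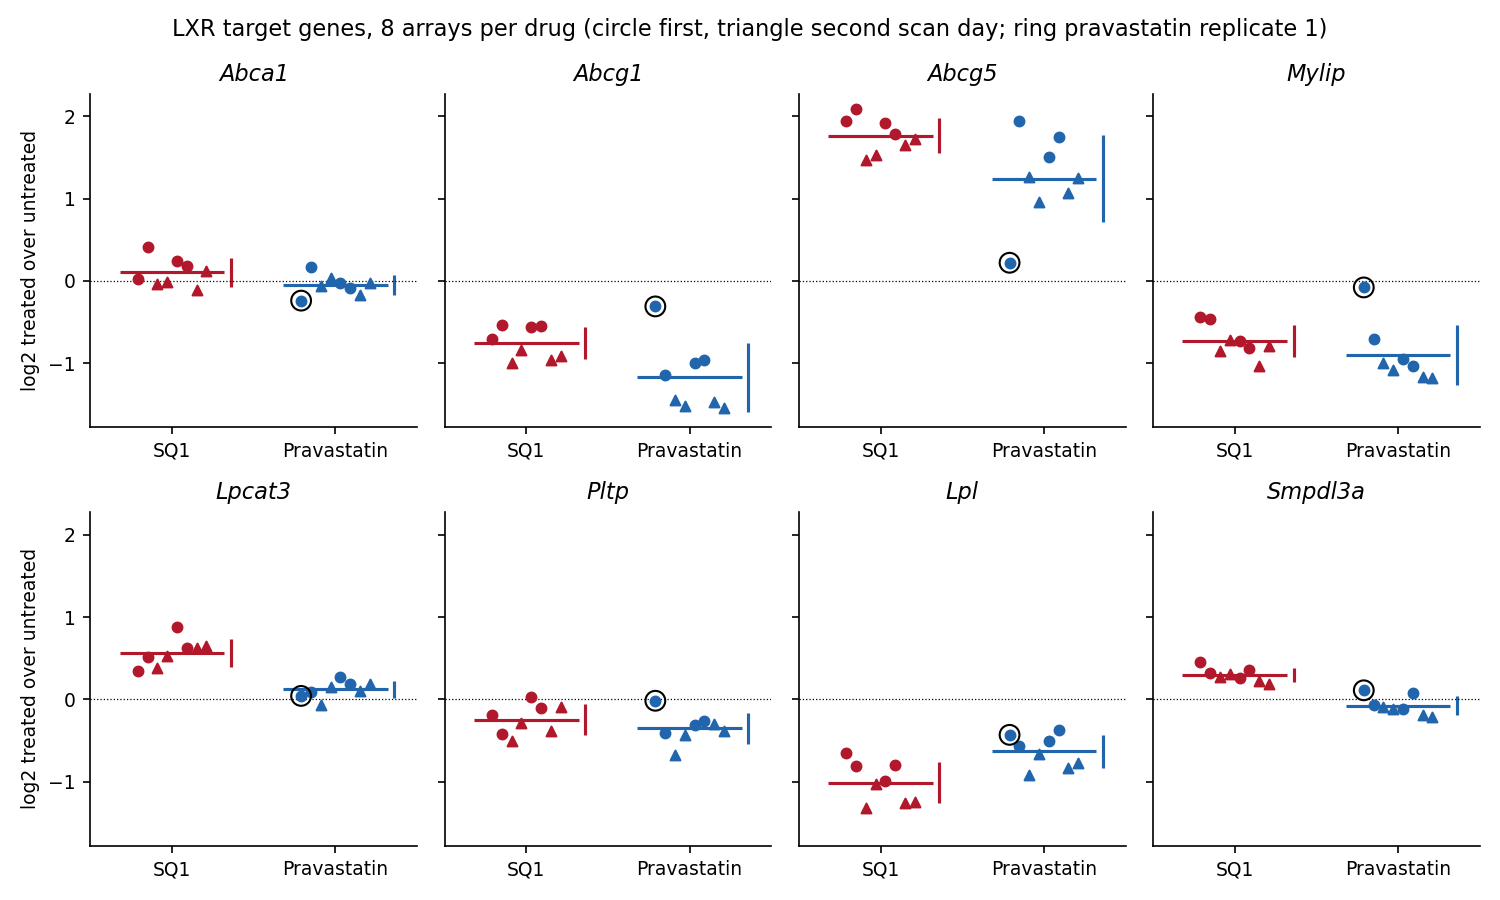
Log2 ratios of treated over untreated cells on every array (vertical axis) for the 8 LXR target genes, with SQ1 left and pravastatin right; circles were scanned on the first day and triangles on the second, lines are means and bars 1 SD (n = 8). Abcg5 lies above 0 on all 16 arrays and Abcg1, Mylip and Lpl below 0 on all 16, while the ringed pravastatin replicate 1 lies nearest to 0 of its group for Abcg1, Abcg5, Mylip and Pltp.

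1 array stood apart. On pravastatin replicate 1 the log ratios of all genes had a slope of 0.65 against the mean of the other arrays of the drug, whereas the other 7 had slopes of 0.83 to 1.11. Its ratios are given beside each result that rests on it. The SREBP2 targets Idi1, Sqle and Insig1 were inside the range of the other 7 arrays on it, at 4.52, 2.76 and 2.55.

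**Figure D2:**
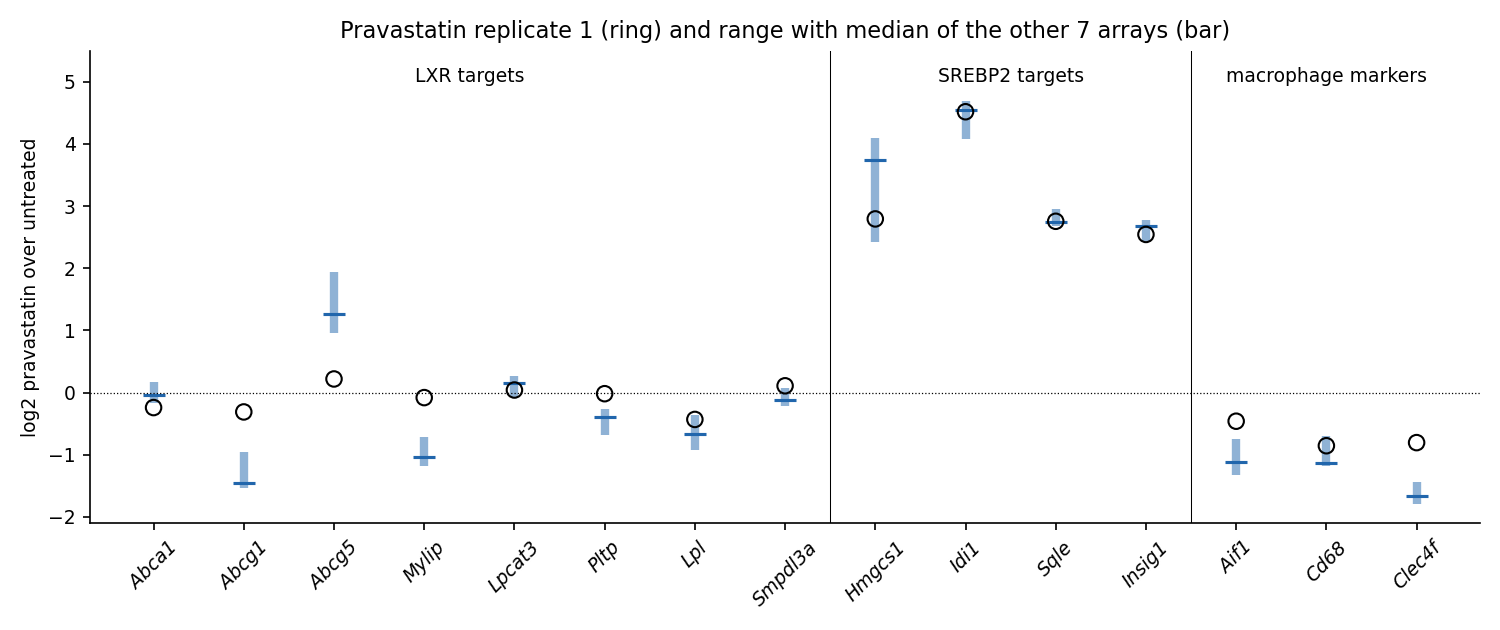
Log2 ratios of pravastatin-treated over untreated cells (vertical axis) on replicate 1 (ring) beside the range and median of the other 7 arrays (bar) for the LXR targets, 4 SREBP2 targets and 3 macrophage markers. The rings of Abcg1, Abcg5, Mylip, Pltp, Aif1 and Clec4f lie outside the bars on the side of 0. Those of Abca1 and Smpdl3a lie outside the bars on the side away from 0. The rings of Lpcat3, Lpl, Hmgcs1, Idi1, Sqle, Insig1 and the macrophage marker Cd68 lie within the bars.

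The sterol exporters showed 3 different patterns. Abca1, which loads cholesterol and phospholipid onto apolipoprotein A-I, had log2 ratios of -0.11, 0.07 and 0.41 with SQ1 (lowest, median and highest of 8 arrays). With pravastatin they were -0.24, -0.05 and 0.17. Ratios lay on both sides of 0 with each drug, and the fitted differences were 0.10 ± 0.05 with SQ1 (SE, adjusted p = 0.085) and -0.05 ± 0.05 with pravastatin (adjusted p = 0.45). Without SQ1 replicate 7 the SQ1 value passed, at 0.13 with an adjusted p of 0.034, and so it did with the control number as a fixed block (adjusted p = 0.0080), with median centring in place of loess (0.046) and with the processed signals (0.033). By scan day the SQ1 ratios of Abca1 averaged -0.01 ± 0.09 on the second and 0.22 ± 0.16 on the first (SD, n = 4 each); the first-day value passed within its day (adjusted p = 0.026). The 95% interval of the Abca1 difference reached from -0.0036 to 0.21 with SQ1 and from -0.16 to 0.05 with pravastatin.

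Abcg1, which passes cholesterol to high-density lipoprotein and is strong in macrophages, fell with both drugs. Its SQ1 ratios were -1.0, -0.77 and -0.54, and its pravastatin ratios -1.54, -1.29 and -0.31 (lowest, median, highest). All 16 ratios were below 0, and its probe's levels did not overlap between treated and untreated cells: 9.02 to 9.31 in SQ1-treated and 9.58 to 10.22 in untreated cells, 8.33 to 9.05 in pravastatin-treated and 9.36 to 10.45 in untreated cells (log2 signal). The fitted difference was -0.76 ± 0.10 with SQ1, 1.69-fold lower (adjusted p = 4.3e-06), and -1.17 ± 0.10 with pravastatin, 2.25-fold lower (adjusted p = 8.8e-08). The least negative pravastatin ratio was that of replicate 1, and without that array the difference was -1.30.

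Abcg5 rose with both drugs on all 16 arrays. Its ratios were 1.47, 1.76 and 2.09 with SQ1, and 0.22, 1.26 and 1.94 with pravastatin (lowest, median, highest). The fitted rise was 1.76 ± 0.13 with SQ1, 3.40-fold (adjusted p = 8.6e-10), and 1.24 ± 0.13 with pravastatin, 2.37-fold (adjusted p = 4.6e-07). The lowest pravastatin ratio was again replicate 1, and the rise was 1.39 without it. Abcg5 was a dim probe in untreated cells, where its raw signal was 1.08 to 1.23 times the local background, so the size of its rise depends on how background is treated: with no subtraction it was 0.78 with SQ1 and 0.60 with pravastatin, and with the scanner software's own processed signals 2.95 and 2.71. It passed the test in every setting tried, with both drugs. The probe of Abcg8, the other subunit of the transporter, was well above background in 0 of the 32 channel measurements, so no direction is given for it.

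**Figure D3:**
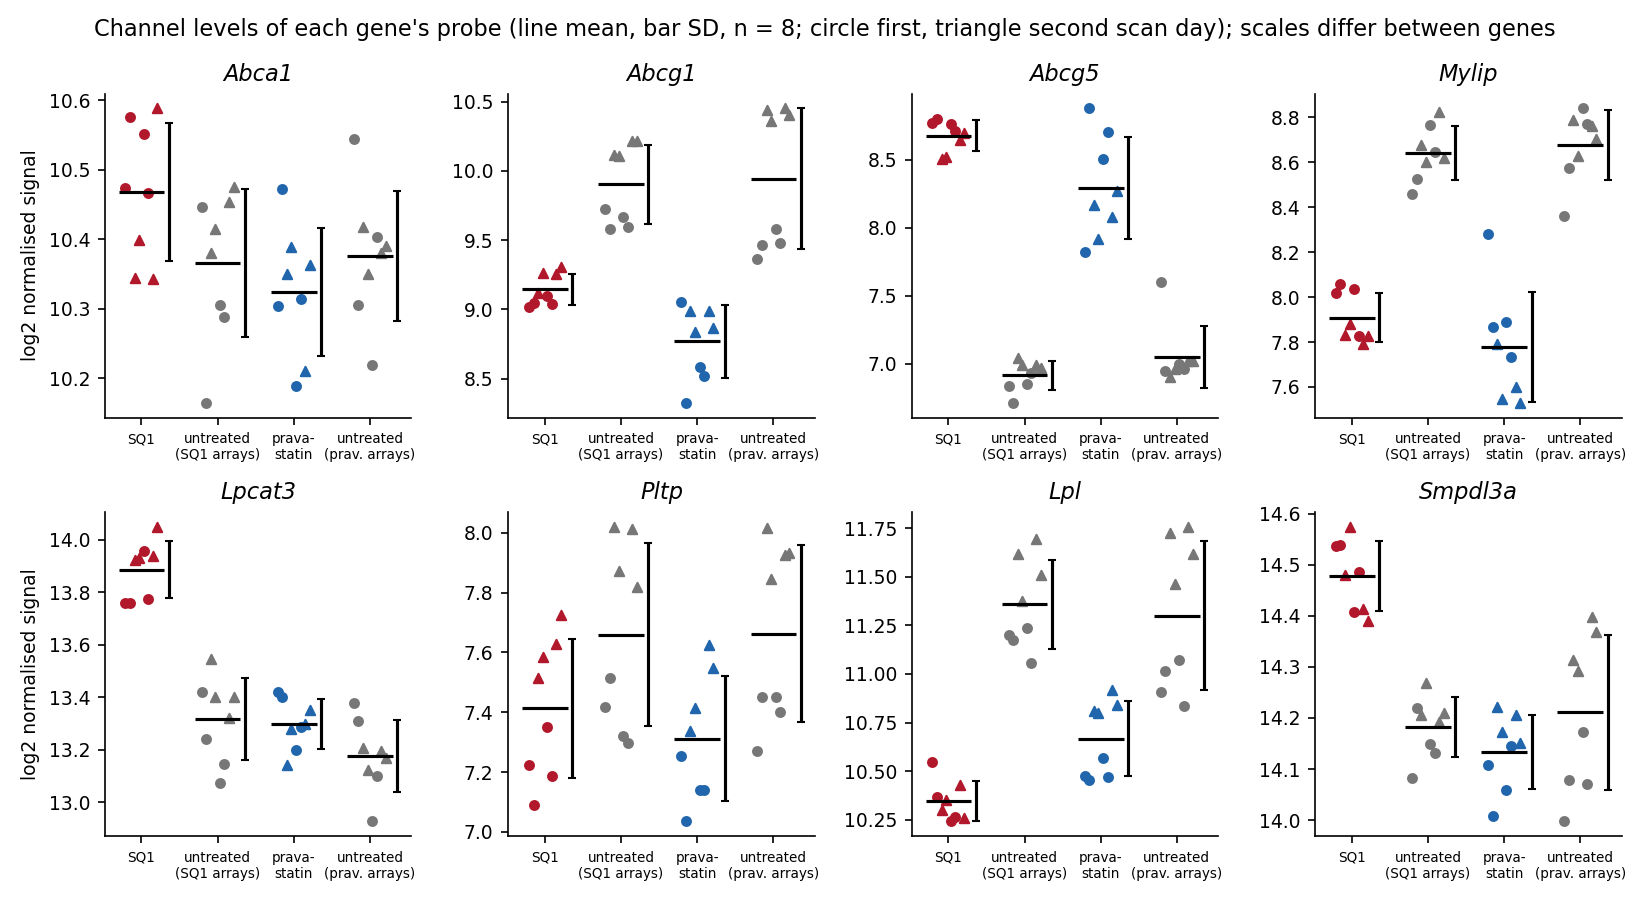
Normalised log2 signal of each gene's probe (vertical axis, own scale per gene) in SQ1-treated cells, the untreated cells on the same arrays, pravastatin-treated cells and the untreated cells on those arrays (points are arrays, lines means, bars 1 SD, n = 8). Circles are the first and triangles the second scan day; Abcg5 is higher and Abcg1 lower in treated cells, and the untreated points of Abcg1 and Pltp separate by scan day.

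Mylip, also called IDOL, is a ubiquitin ligase that marks lipoprotein receptors for degradation. It fell with both drugs: its ratios were -1.03, -0.76 and -0.44 with SQ1, and -1.17, -1.02 and -0.08 with pravastatin (lowest, median, highest). All 16 were below 0, with pravastatin replicate 1 the nearest to it. The fitted difference was -0.73 ± 0.08 with SQ1 (1.66-fold lower, adjusted p = 2.2e-07) and -0.90 ± 0.08 with pravastatin (1.87-fold lower, adjusted p = 7.6e-08), or -1.0 without replicate 1. A second, dimmer probe of Mylip gave smaller falls that also passed, -0.25 ± 0.04 with SQ1 and -0.27 ± 0.04 with pravastatin. Of 6 measured genes of Mylip substrates and sterol uptake, 3 rose and 1 fell with SQ1, and 2 rose and 1 fell with pravastatin. Of all genes, 63.9% passed with SQ1 and 39% with pravastatin, so such counts alone say little, here and in the lists below. Vldlr, a lipoprotein receptor and a substrate of Mylip, rose by 0.85 ± 0.08 with SQ1 and had 0.17 ± 0.08 with pravastatin (adjusted p = 0.11), a difference of 0.68 ± 0.12 (adjusted p = 0.00016).

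Lpcat3, the enzyme that puts polyunsaturated acyl chains into lysophospholipids, rose with SQ1 on all 8 arrays. Its SQ1 ratios were 0.34, 0.57 and 0.88, and its pravastatin ratios -0.06, 0.13 and 0.27 (lowest, median, highest), and these ranges do not overlap. The fitted rise was 0.57 ± 0.03 with SQ1, 1.48-fold (adjusted p = 1.0e-10). With pravastatin it was 0.12 ± 0.03, 1.09-fold (adjusted p = 0.010), positive on 7 of 8 arrays; this small rise lost its call with slide as a random block (adjusted p = 0.065), without the dye term (0.057) and within either scan day (0.068 and 0.10). Of 9 measured genes of phospholipid remodelling, 4 rose and 3 fell with SQ1, and 4 rose and 2 fell with pravastatin, where 63.9% and 39% of all genes passed. Pcyt1a, the regulated enzyme of phosphatidylcholine synthesis, rose by 0.39 ± 0.02 with SQ1, and Pemt, which methylates phosphatidylethanolamine, fell with both drugs (-0.93 ± 0.08 with SQ1 and -0.67 ± 0.08 with pravastatin). Pla2g6, a calcium-independent phospholipase, rose by 0.38 ± 0.03 with SQ1 and 0.23 ± 0.03 with pravastatin.

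Pltp, which transfers phospholipid between lipoproteins, had the smallest fitted falls of the 4 falling genes in the main fit. With the processed signals the fall of Pltp with pravastatin (-0.69) was larger than that of Lpl (-0.66). The ratios of Pltp were -0.51, -0.24 and 0.03 with SQ1, and -0.68, -0.35 and -0.02 with pravastatin (lowest, median, highest). 7 of 8 SQ1 ratios and 8 of 8 pravastatin ratios were below 0, with pravastatin replicate 1 again the highest of its group. The fitted difference was -0.25 ± 0.06 with SQ1 (adjusted p = 0.00086) and -0.35 ± 0.06 with pravastatin (adjusted p = 7.9e-05). Its probe was dim too, and across all settings its value ran from -0.40 to -0.09 with SQ1 and from -0.69 to -0.14 with pravastatin; within the first scan day its SQ1 value was -0.18 and did not pass (adjusted p = 0.069).

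Lpl, lipoprotein lipase, fell with both drugs on all 16 arrays. Its probe was printed in 10 spots, whose ratios had an SD of only 0.02 to 0.06 within an array. The SQ1 ratios were -1.31, -1.01 and -0.65, and the pravastatin ratios -0.92, -0.61 and -0.37 (lowest, median, highest). The fitted difference was -1.01 ± 0.07 with SQ1, 2.02-fold lower (adjusted p = 9.0e-10), and -0.63 ± 0.07 with pravastatin, 1.55-fold lower (adjusted p = 2.0e-06). Of 9 measured genes that act on lipoprotein lipase or beside it, 2 rose and 6 fell with SQ1, where 31.2% of all genes fell. With pravastatin 2 rose and 5 fell, where 19.7% of all genes fell. Apoc2, the activator of the lipase, fell with both drugs (-1.62 ± 0.05 with SQ1 and -0.71 ± 0.05 with pravastatin). The list was not limited to activators, so its counts give no direction for the activity of the lipase, which was not measured.

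Smpdl3a, a secreted acid sphingomyelinase-like phosphodiesterase, passed with SQ1 and not with pravastatin. Its ratios were 0.18, 0.29 and 0.46 with SQ1, and -0.22, -0.10 and 0.11 with pravastatin (lowest, median, highest), so the SQ1 range lay wholly above the pravastatin range. The fitted rise with SQ1 was 0.30 ± 0.03, 1.23-fold (adjusted p = 4.1e-07). With pravastatin the difference was -0.08 ± 0.03 (adjusted p = 0.079). That value passed without pravastatin replicate 1 (-0.10, adjusted p = 0.026) or replicate 6 (-0.11, adjusted p = 0.013), and with the control number as a fixed block (adjusted p = 0.00417). It also passed within the second scan day (-0.15, adjusted p = 0.00098), with scan day as a term (0.021), with no background subtraction (0.027) and with the processed signals (0.049), while within the first scan day it was 6.6e-05. Of 6 relatives of Smpdl3a, 2 rose and 1 fell with SQ1, and 3 rose and 1 fell with pravastatin, where 63.9% and 39% of all genes passed. Asah1, acid ceramidase, rose by 0.74 ± 0.03 with SQ1 and 0.33 ± 0.03 with pravastatin. Smpdl3b, the membrane-bound paralog, rose by 0.47 ± 0.06 with SQ1 and 0.33 ± 0.06 with pravastatin. Smpd3, the neutral sphingomyelinase 2 gene, rose by 0.65 ± 0.04 with pravastatin.

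The 2 drugs were then set against each other as SQ1 minus pravastatin. 5 of the 8 genes passed, 4 higher and 1 lower with SQ1, where 38% of all genes passed, 18.5% upward and 19.5% downward. None of the 5 was past 1.5-fold in the main fit, as 1.94% of all genes were upward and 2.27% downward. Abcg1 was past it with the processed signals (0.65, adjusted p = 8.5e-05) and with plain background subtraction (0.62, adjusted p = 0.00018). With arrays scaled to 1 spread Abcg1 was past it too (0.82, adjusted p = 2.0e-06), and Abcg5 reached 0.64 with 1 array left out. Lpcat3 differed by 0.45 ± 0.05 (adjusted p = 1.0e-06) and Smpdl3a by 0.37 ± 0.05 (adjusted p = 5.6e-06), and these 2 passed in every setting tried. The positive sign of Abcg1 (0.41 ± 0.15, adjusted p = 0.034) reflects a fall that was smaller with SQ1. Abcg5 was higher with SQ1 by 0.52 ± 0.18 (adjusted p = 0.028) and Lpl lower (-0.38 ± 0.10, adjusted p = 0.0067), but scaling all arrays to 1 spread turned both, to -0.09 for Abcg5 and 0.09 for Lpl. That scaling removes the wider spread of SQ1 arrays, whose log ratios had SDs of 0.35 to 0.43, against 0.22 to 0.29 on pravastatin arrays. Abca1 (0.15, 95% interval 0.0049 to 0.30), Mylip (0.17, -0.07 to 0.40) and Pltp (0.10, -0.06 to 0.27) did not pass, with adjusted p of 0.099, 0.27 and 0.34. Abca1 passed with the control number as a random block (adjusted p = 0.021) or a fixed block (0.0086). Leaving out 1 array decided several of these calls. The Abcg1 difference failed without any 1 of 7 arrays (SQ1 replicates 2, 5 and 6 and pravastatin replicates 3, 4, 7 and 8; adjusted p = 0.064 to 0.074). The Abcg5 difference failed without any 1 of 4 arrays (SQ1 replicates 1 and 2 and pravastatin replicates 4 and 7; 0.051 to 0.058). With slide as a random block, Abcg1 (adjusted p = 0.074) and Abcg5 (0.12) failed too. Under the processed signals the Abcg5 difference was 0.25 (adjusted p = 0.35), while Mylip (0.34, adjusted p = 0.033) and Pltp (0.35, adjusted p = 0.012) passed. Without pravastatin replicate 1, Mylip (0.27, adjusted p = 0.0067) and Pltp (0.17, adjusted p = 0.048) passed, and without pravastatin replicate 2, Abca1 did (0.19, adjusted p = 0.046). Each slide held arrays of 1 drug, so drug and slide cannot be told apart in this comparison.

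**Figure D4:**
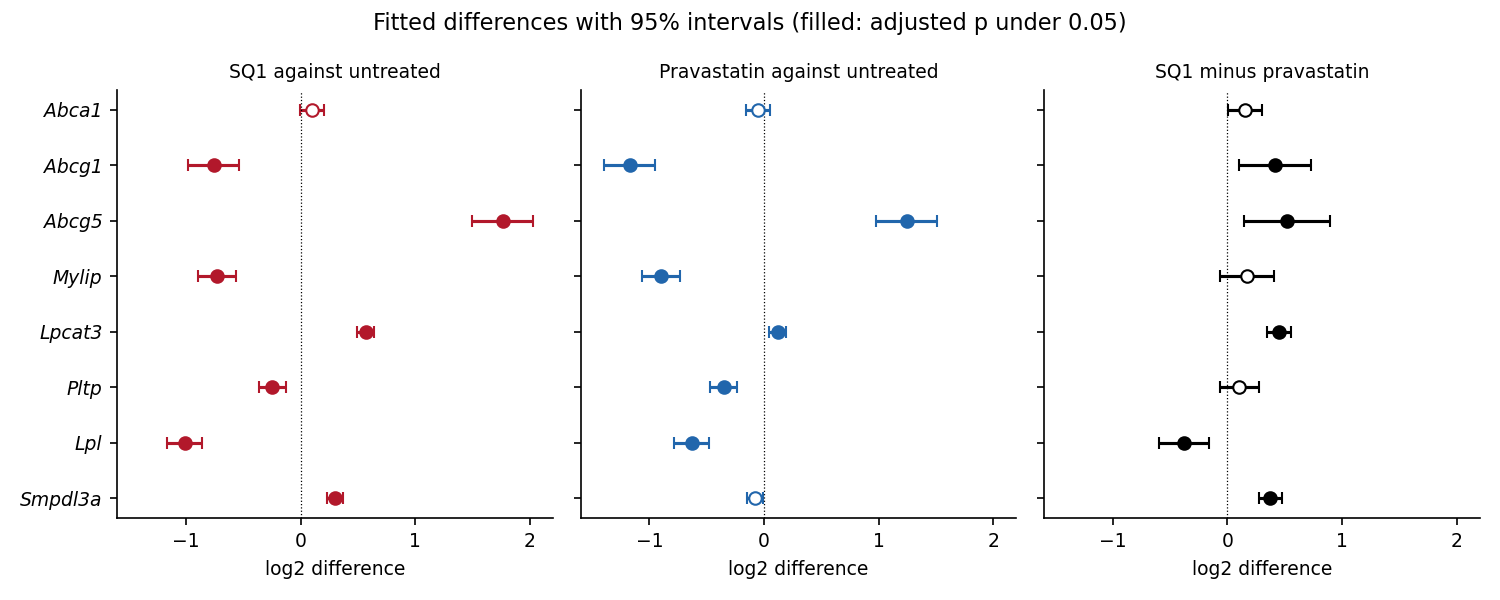
Fitted log2 differences (horizontal axis) with 95% intervals for each drug against untreated cells (left and middle) and for SQ1 minus pravastatin (right), n = 8 arrays per drug, filled where the adjusted p was under 0.05. Abcg5 is the furthest to the right in each panel and Abca1 is open in all 3; the Abcg5 and Lpl values of the right panel change sign when arrays are scaled to 1 spread.

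The receptors themselves moved little. Nr1h3 fell by 0.20 ± 0.03 with SQ1 (adjusted p = 9.9e-06) and had -0.02 ± 0.03 with pravastatin (adjusted p = 0.66). Nr1h2 had -0.06 ± 0.03 with SQ1 (adjusted p = 0.082) and fell by 0.10 ± 0.03 with pravastatin (adjusted p = 0.0061). Rxra had -0.06 ± 0.03 and 0.01 ± 0.03 and passed with neither. Of 7 measured receptors and cofactors out of 12, 2 rose and 2 fell with SQ1, and 0 rose and 1 fell with pravastatin. Of all genes, 63.9% passed with SQ1 and 39% with pravastatin.

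Most of the other LXR targets fell with SQ1, where 31.2% of all genes fell (19.7% with pravastatin). Of 13 measured out of 17, 1 rose and 11 fell with SQ1, with a median of -0.61. With pravastatin 1 rose and 6 fell, with a median of -0.10. The median of all genes was 0.01 with SQ1 and 0.002 with pravastatin. A fall of this size with SQ1 was not particular to LXR targets. The cell type markers described below had SQ1 medians of -0.62 (hepatocyte), -0.60 (stellate and fibroblast), -0.58 (macrophage), -0.28 (endothelial) and 0.02 (cholangiocyte). The list of other LXR targets was not limited to sterol export: Apoc1, an exchangeable apolipoprotein, fell with both drugs (-2.56 ± 0.12 with SQ1 and -1.83 ± 0.12 with pravastatin). Apoe, a ligand of hepatic lipoprotein receptors, fell with both drugs (-0.72 ± 0.04 with SQ1 and -0.48 ± 0.04 with pravastatin). Scd, stearoyl-CoA desaturase, differed between the drugs by -0.92 ± 0.09 (SQ1 minus pravastatin). Srebf1 had no probe among those kept.

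Enzymes that make or remove oxysterols, the ligands of LXR, mostly fell as well. Of 10 measured, 3 rose and 7 fell with SQ1, where 31.2% of all genes fell. With pravastatin 2 rose and 7 fell, where 19.7% of all genes fell. Dhcr7, the last enzyme of one branch of cholesterol synthesis, rose by 1.42 ± 0.06 with SQ1 and 2.0 ± 0.06 with pravastatin. Cyp3a2, a drug- and sterol-oxidising P450, rose by 1.26 ± 0.07 with SQ1 and fell by 0.30 ± 0.07 with pravastatin. Of 14 partners in sterol handling, 5 rose and 6 fell with SQ1, and 7 rose and 5 fell with pravastatin, where 63.9% and 39% of all genes passed. Nceh1, a cholesteryl ester hydrolase, rose by 1.82 ± 0.04 with SQ1 and 0.27 ± 0.04 with pravastatin. Stard4, a carrier of cholesterol inside the cell, rose by 1.74 ± 0.05 with SQ1 and 1.85 ± 0.05 with pravastatin. The 9 SREBP2 targets examined as a check on both drugs all rose, with medians of 2.89 with SQ1 and 2.78 with pravastatin.

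The genes whose ratios lay nearest to a given LXR target over the 16 arrays were found by the root mean square difference, as a description. For Abcg1 they were Aif1 (0.19), Fcgr1a (0.19) and Cd5l (0.20), and for Mylip Cfp (0.13), Aif1 (0.13) and Cd5l (0.14). Aif1 and Cd5l are macrophage markers, Fcgr1a encodes an Fc receptor of macrophages and Cfp encodes properdin, made by myeloid cells. For Abcg5 the nearest were C1h11orf86 (0.31), Fads2 (0.33), the delta-6 desaturase, and Sgk2 (0.37), a kinase. For Lpcat3 they included Vps35 (0.09), a retromer subunit, and Acsf2 (0.10), an acyl-CoA synthetase. For Pltp they were Serpinb1a (0.11), a protease inhibitor, Igsf6 (0.11), an immunoglobulin-type receptor of leukocytes, and Ogfrl1 (0.11). For Lpl they were Nkiras1 (0.12), Gckr (0.12), the glucokinase regulator, and St3gal6 (0.12), a sialyltransferase.

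**Figure D5:**
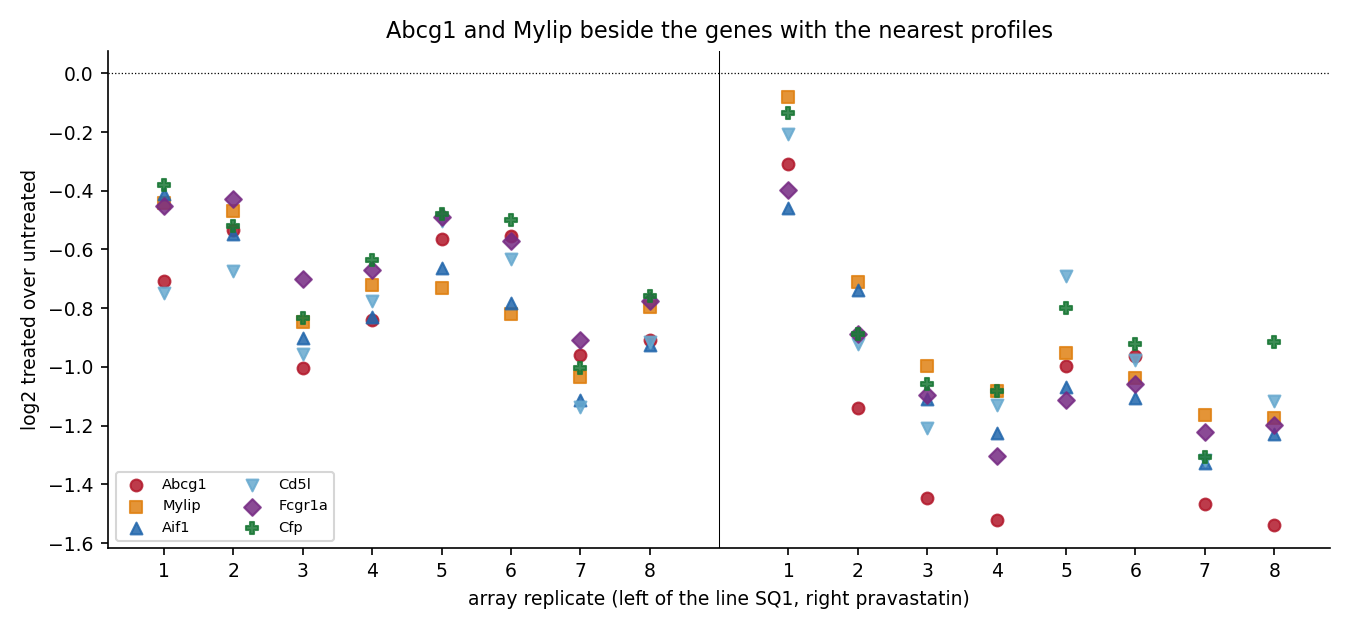
Log2 ratios of treated over untreated cells (vertical axis) on each SQ1 array (left) and each pravastatin array (right) for Abcg1, Mylip and the genes nearest to them, Aif1, Cd5l, Fcgr1a and Cfp; each point is 1 array. All 6 genes are closest to 0 on pravastatin replicate 1 among the pravastatin arrays. Aif1, Cd5l, Fcgr1a and Cfp were picked for nearness to Abcg1 or Mylip over these same arrays, so their likeness on that array is partly built in.

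Markers of other liver cells moved in the same arrays. Of all genes, 32.7% rose and 31.2% fell with SQ1, and 19.4% rose and 19.7% fell with pravastatin. All 15 macrophage markers fell with both drugs, with medians of -0.58 with SQ1 and -0.83 with pravastatin, and every one of them was measured. Their summed level was 15.50 to 16.09 in SQ1-treated and 15.97 to 16.83 in untreated cells, and 15.43 to 15.68 in pravastatin-treated and 16.08 to 16.67 in untreated cells (log2 signal). With pravastatin, Cd68 fell by 1.04 ± 0.06 and Clec4f, a marker of Kupffer cells, fell by 1.53 ± 0.08. Abca1, Abcg1, Mylip, Lpl and Pltp are also expressed by macrophages. Abca1 did not pass with either drug in the main fit, and the part of macrophages in the falls of the others was not tested. In bulk RNA, fewer cells of a type and less RNA per cell cannot be told apart. Of 10 measured stellate and fibroblast markers, 10 fell with SQ1, among them Lrat (-0.81 ± 0.06) and Col3a1 (-0.77 ± 0.05), and 4 fell with pravastatin. Their summed level was 14.82 to 15.26 in SQ1-treated and 15.59 to 15.77 in untreated cells. Of 4 measured endothelial markers, 3 fell with SQ1, Lyve1 most (-0.80 ± 0.08), and 1 with pravastatin, Pecam1 (-0.11 ± 0.04). Of 6 cholangiocyte markers, 2 rose and 2 fell with SQ1, and 2 rose and 1 fell with pravastatin. Their median difference was 0.02 with SQ1 and 0.003 with pravastatin. Their summed level was 14.83 to 15.08 in SQ1-treated and 14.26 to 14.56 in untreated cells, and 14.50 to 14.99 in pravastatin-treated and 14.20 to 14.60 in untreated cells. A summed level follows the brightest genes of a list, so these sums do not show a rise of most cholangiocyte markers. All 9 hepatocyte markers were measured. All 9 fell with SQ1, Cps1 most (-1.59 ± 0.07), while with pravastatin 7 fell and 2 rose. The parts of these changes in the values of the LXR targets were not tested.

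Untreated levels of some of these genes differed by scan day. The untreated level of Abcg1 was 10.10 to 10.22 on the second day and 9.58 to 9.73 on the first on SQ1 arrays, and 10.36 to 10.45 on the second day and 9.36 to 9.58 on the first on pravastatin arrays. The levels in treated cells lay closer by day, at 9.12 to 9.31 on the second and 9.02 to 9.10 on the first on SQ1 arrays. Lpl was also higher on the second day in untreated cells, at 11.37 to 11.69 on the second day and 11.06 to 11.23 on the first on SQ1 arrays. Pltp was 7.82 to 8.02 on the second day and 7.30 to 7.51 on the first in the same cells. Scan day coincides with the numbering of the untreated cultures, so scan day and culture set cannot be told apart. Within each day, Abcg1, Abcg5, Mylip and Lpl passed with both drugs and in the direction given above.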

How the data were processed

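The authors measured spots with Agilent Feature Extraction, per the submitters' processing notes, in the version (10.7.1.1) that the headers name. In the deposited scanner files, median spot and background brightness per dye are intensity, as are processed signals, and the ratio column is a log10, per the file headers. The deposited value table holds log2 ratios; its columns matched, for every replicate number, the array labelled with the other drug (correlation 0.938 to 1.00, against 0.421 to 0.562 with their own label's array), so groups come from the labels of the scanner files and the table served only as an alternative, with each column given to the array its values matched, not to the drug its name gives.

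In R 4.3.3 with limma 3.58.1, background was corrected by normexp (offset 50), arrays normalised by loess, spots averaged, and probes kept that were well above background in at least 6 of 32 channel measurements. The brightest probe stood for a gene. Of 30367 probes, 17998 were named through RefSeq accessions (GRCr8); the others count under their own identifiers. Levels are log2 signals after quantile normalisation of average intensities. A model with a term per drug and a dye term was fitted over 16 arrays, with two-sided tests, and Benjamini-Hochberg adjustment over 20402 genes. Median signals were 588 to 663 (A555) and 790 to 1076 (A647) over backgrounds of 306 to 315 and 339 to 348. No spot was saturated. On simulated data of that size, 99 of 100 genes changed by 0.5 (log2) were recovered for SQ1, with 12 false calls. The simulated noise was independent between arrays, unlike that of same-numbered arrays here, so the recovery need not hold for the data.

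Same-numbered arrays share a control number, and residual correlations within a number were 0.139 to 0.629, all over 0.1, so the number was also fitted as a block; replicates 2, 7 and 8 had their highest correlation (0.364, 0.391 and 0.328) with a different number. Named genes are the 8 targets, the receptors, Abcg8, Srebf1, Apoe, the 2 largest called changes of each list, and the 3 nearest profiles; a few genes that this rule names are not reported here. Genes and lists were chosen with earlier results of these data known. No scaling moved the median of all genes by over 0.1. Loess and median centring set that median near 0 by design, so it cannot show whether all genes shifted together. Other background, scaling, filter, probe, block and leave-one-out settings were tried.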

Additional observations from a re-analysis of the deposited data

Results flagged for a closer look

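On pravastatin replicate 1, Abcg1 had a log2 ratio of -0.310 while the other 7 pravastatin arrays had -1.54 to -0.96, and Mylip had -0.0798 while they had -1.17 to -0.71. Each gap to the nearest array was large for its group's range by Dixon's rule, 2 of the 16 groups examined; chance gives about 1 in 20. Abcg5, at 0.22 against 0.96 to 1.94 on the others, was not flagged by that rule. The channel levels of that array, treated before untreated, were 9.05 and 9.36 for Abcg1, 8.28 and 8.36 for Mylip, and 7.82 and 7.60 for Abcg5. The untreated Abcg5 level was 6.84 for the same control number on SQ1 replicate 1. Clec4f (-0.80, others -1.79 to -1.44) was also nearer 0 on this array. Cd68 (-0.85, others -1.18 to -0.70) and Hmgcs1 (2.79, others 2.42 to 4.09) lay within the range of the others. Abca1 (-0.24, others -0.17 to 0.17) and Smpdl3a (0.11, others -0.22 to 0.08) lay outside that range on the side away from 0. The cause was not tested.

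In 3 cases the drug's effect differed between the scan days by an interaction term in limma, given as second minus first day. Lpl differed by -0.40 ± 0.08 with SQ1 (SE, adjusted p = 0.0022), with ratios of -1.21 ± 0.13 on the second day and -0.81 ± 0.14 on the first (SD, n = 4 each). Lpl differed by -0.33 ± 0.08 with pravastatin (adjusted p = 0.017), with -0.80 ± 0.11 on the second day and -0.47 ± 0.08 on the first. Abcg1 differed by -0.64 ± 0.12 with pravastatin (adjusted p = 0.0064), with -1.49 ± 0.04 on the second day and -0.85 ± 0.37 on the first, which holds replicate 1. All ratios were below 0 on both days. Of all genes, 14.9% passed this test with SQ1 and 5.01% with pravastatin.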

How the results depend on the processing

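The 24 values of the 8 genes in the 3 comparisons were computed again under up to 34 other settings each, in all 808 values, of which 750 kept their direction and their side of the threshold, 29 came to pass, 25 ceased to pass and 4 changed sign. The changes of sign were SQ1 minus pravastatin for Abcg5 (-0.0904) and Lpl (0.0947) with arrays scaled to 1 spread, pravastatin for Smpdl3a within the first scan day (6.6e-05), and SQ1 for Abca1 within the second (-0.0125). Against untreated cells, Abcg1, Abcg5, Mylip and Lpl passed with both drugs under all 34. Scaling to 1 spread left 3727 genes passing in SQ1 minus pravastatin, against 7760. Within the first scan day, 3976 genes passed for pravastatin, against 7965, and 4801 for SQ1 minus pravastatin; these fits hold fewer arrays. Of the 8 genes, 3 passed in SQ1 minus pravastatin within the first scan day and with slide as a random block, and 3 to 7 when 1 array was left out. With a fixed replicate block, Abca1 passed with SQ1 (adjusted p = 0.0080) and in SQ1 minus pravastatin (0.0086), and Smpdl3a with pravastatin (0.00417); 8 genes then passed with SQ1. The replicate block changed no other call among the 8 genes. Leaving out replicate 1 of both drugs, a choice made after seeing the data, gave an adjusted p of 0.064 for the Abcg5 difference and 0.012 for that of Mylip. A fit of 1 drug alone gives no difference between drugs. Other causes were not tested. Low signal over background limits the sizes of Abcg5, Pltp and Mylip. The deposited value table was used by matched arrays; read as its columns are named, the drugs would change places.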
